A study of Mus musculus with 18 samples.

Results

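Pdgfrb, Rgs5, Acta2, Tagln, Dcn, Lum, Mgp and Fbln1 are 8 genes used as markers of pericytes, vascular smooth muscle and fibroblasts, and their levels were followed across mouse medulloblastomas. They were taken by symbol from 19938 measured genes, and each had 1 probe set. RNA extracted from 18 tumours with Trizol had been hybridised to Affymetrix mouse Gene ST 1.0 arrays. Medulloblastoma is a tumour of the cerebellum, and the tumours of this study carried lesions of the Hedgehog pathway, in which Ptch1 is the inhibitory receptor and Smo the signal transducer. The GFD-Smo;GFAP-cre group (n = 4, called GFD-Smo) held the GFD subtype of Smo tumours with a Cre recombinase named for GFAP, a glial gene. The NG-Smo;Atoh1-CreER group (n = 4, called NG-Smo) held the NG subtype of Smo tumours with an inducible Cre named for Atoh1, a granule neuron progenitor gene. The GFI-Ptch (n = 4), GFD-Ptch (n = 2) and NG-Ptch (n = 4) groups held the GFI, GFD and NG subtypes of Ptch tumours.

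NG, GFD and GFI are not spelled out in the labels, and the exact alleles, strains and ages are not given in the sources used here. In the Smo tumours, subtype and Cre driver cannot be told apart, since each subtype came with its own driver. The titles of the Ptch groups name no Cre driver. Between Smo and Ptch tumours, model and driver therefore cannot be told apart either. The labels describe GFI-Ptch replicate 4 as progressed from another tumour in an NSG female host, an immunodeficient mouse, and it is called the transplanted tumour below. Nothing in the labels says that replicates came from separate animals, so the p-values cover no more than the spread among these samples. Every group is tumour tissue, with no normal cerebellum among them.

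The tissue label was checked against the granule neuron progenitor gene Atoh1 and the Hedgehog target Gli1. Atoh1 had group means of 11.90 to 12.38 on the log2 scale, and Gli1 had group means of 10.06 to 10.44. The median level per array lay between 7.736 and 7.868. The transplanted tumour correlated least with the other arrays of its group, with a mean correlation of 0.972, and outside GFI-Ptch NG-Smo replicate 4 did, with 0.985. Levels of Y-linked genes went against the gender label on 3 arrays, GFI-Ptch replicate 4 and GFD-Smo replicates 2 and 3.

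Pericytes wrap the endothelium of small vessels, and in the brain they support the blood-brain barrier. They are recruited by PDGF-B from endothelial cells through the receptor encoded by Pdgfrb, while arterial smooth muscle adds a contractile apparatus in which Acta2 and Tagln act. Fibroblasts of the brain lie mainly in the meninges and around larger vessels, and they secrete collagens together with matrix proteins such as those of Dcn, Lum, Mgp and Fbln1. In RNA from whole tumours, fewer cells of a type and less RNA per cell cannot be told apart.

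Among the 8 genes, Pdgfrb was higher in GFD-Smo than in NG-Smo tumours, and in the GFD subtype Pdgfrb and Rgs5 were higher and Mgp lower in Smo than in Ptch tumours. No other difference passed the test, which was limma's moderated test over all 19938 genes with Benjamini-Hochberg adjustment, called at an adjusted p under 0.05. For GFD minus NG in Smo tumours 1 of the 8 genes was called, against 5.31% of all genes. For Smo minus Ptch in GFD tumours 3 of 8 were called, against 15.6% of all genes. For Smo minus Ptch in NG tumours 0 of 8 were called, against 1.04% of all genes, and 1 of the 8 had an unadjusted p under 0.05, against 10.6% of all genes. For GFD minus NG in Ptch tumours 0 of 8 were called by limma, against 0.01% of all genes. There 4 of the 8 had an unadjusted p under 0.05, as had 16.9% of all genes. For GFI minus NG in Ptch tumours 0 of 8 were called by limma, against 0.0% of all genes, and 0 of the 8 had an unadjusted p under 0.05, against 8.53% of all genes. For GFI minus GFD 0 of 8 were called by limma, against 0.00502% of all genes, and 1 of the 8 had an unadjusted p under 0.05, against 9.79% of all genes. The change from NG to GFD tumours was itself compared between the Smo and Ptch models, where 0 of 8 genes were called against 3.81% of all genes by limma, with 1 of 8 at an unadjusted p under 0.05, against 20.1% of all genes. The comparisons with NG-Ptch share those 4 arrays, and those with GFD-Ptch share its 2 arrays.

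**Figure D1:**
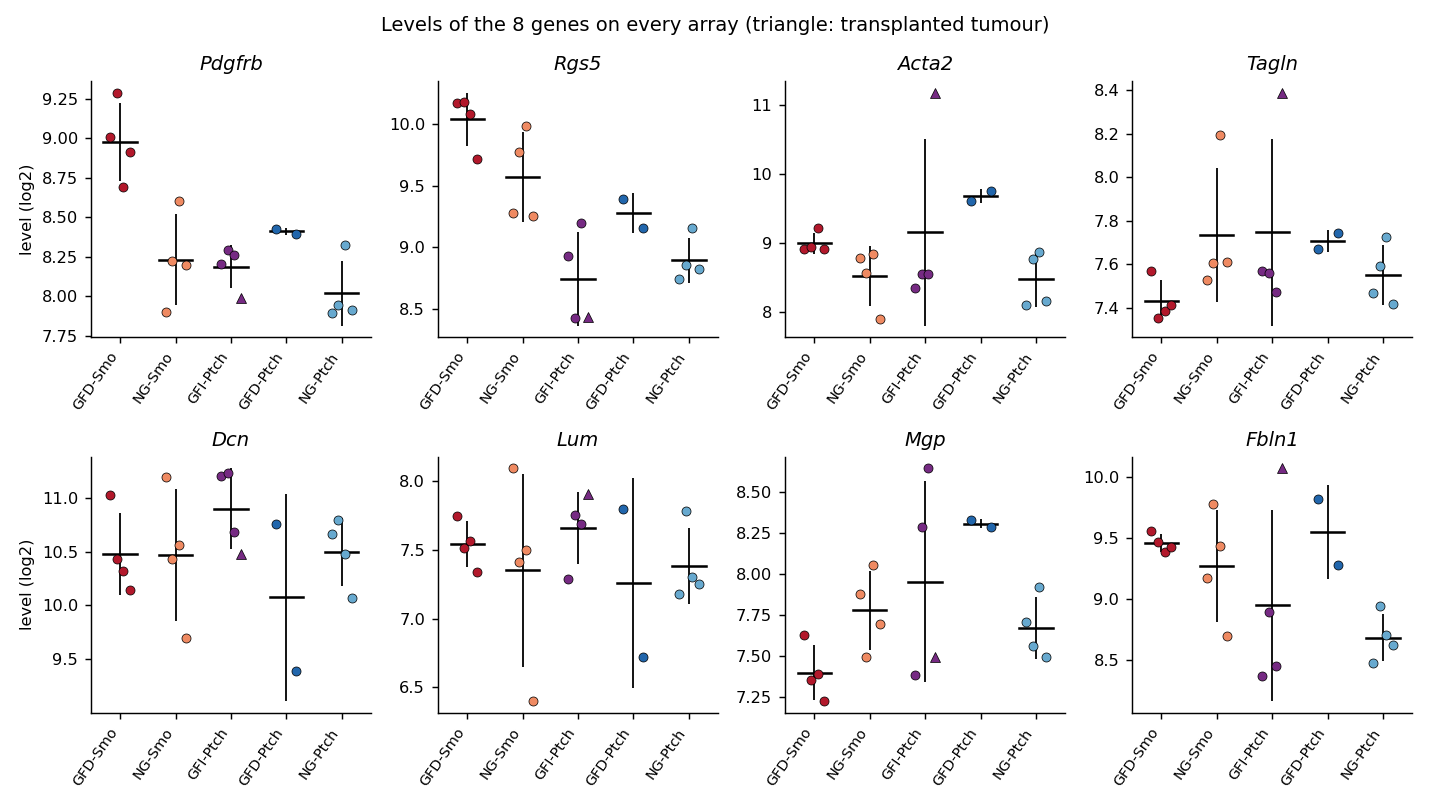
Level (log2, y axis) of each of the 8 genes on every array, 1 panel per gene with its own scale, in the 5 groups along the x axis. Points are arrays, horizontal lines group means and vertical lines the SD; the triangle is the transplanted tumour, which has the highest Acta2 (11.18), Tagln (8.39) and Fbln1 (10.07) of the 18 arrays.

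**Figure D2:**
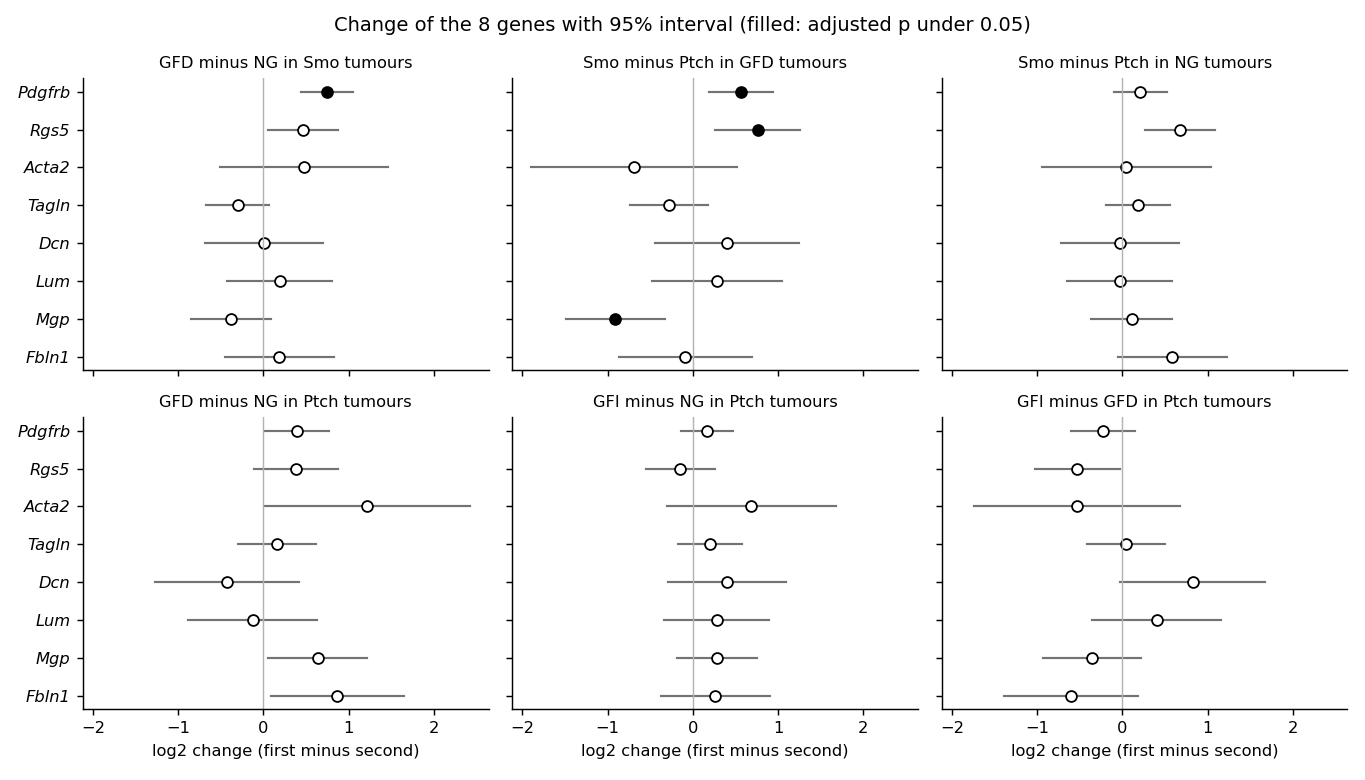
Log2 change of the 8 genes with its 95% interval in 6 comparisons, each the first-named group minus the second. Filled points are genes called at an adjusted p under 0.05: Pdgfrb for GFD minus NG in Smo tumours, and Pdgfrb, Rgs5 and Mgp for Smo minus Ptch in GFD tumours.

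Pdgfrb encodes the receptor for PDGF-B and PDGF-D on mural cells. Its levels in GFD-Smo tumours were 9.01, 9.29, 8.69 and 8.91, and in NG-Smo tumours 7.90, 8.22, 8.60 and 8.20. In Ptch tumours they were 8.20, 8.29, 8.26 and 7.99 in GFI, 8.43 and 8.39 in GFD, and 7.90, 7.95, 8.32 and 7.91 in NG. All 4 GFD-Smo arrays lay above the other 14 arrays. The group means were 8.97 ± 0.25 in GFD-Smo, 8.23 ± 0.29 in NG-Smo, 8.19 ± 0.14 in GFI-Ptch, 8.41 ± 0.02 in GFD-Ptch and 8.02 ± 0.20 in the NG-Ptch group (SD, with the numbers of arrays above). Below GFD-Smo, no neighbours in the order of means differed by more than the larger of their SDs.

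In Smo tumours Pdgfrb was 0.74 higher in GFD than in NG on the log2 scale, a 1.68-fold difference (SE 0.14, limma's adjusted p = 0.00603). Over 29 alternative settings, each array left out in turn among them, the difference ranged from 0.63 to 0.87 and the adjusted p from 0.0020 to 0.0349. In Ptch tumours the same difference was 0.39 (95% interval 0.02 to 0.77, adjusted p = 0.283 with limma), with both GFD arrays above all 4 NG arrays. The change in Smo tumours exceeded that in Ptch tumours by 0.35, with an interval of -0.13 to 0.84 (adjusted p = 0.384 with limma). Within the GFD subtype Pdgfrb was 0.56 higher in Smo than in Ptch tumours (SE 0.18, limma's adjusted p = 0.0423).

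Other cell types also differed between the GFD-Smo and NG-Smo tumours. Over all genes 46.1% were above 0 in this comparison and 5.31% were called. All 12 astrocyte genes were above 0 and 7 were called, among them the connexin gene Gja1 (2.32), the water channel gene Aqp4 (1.89) and Aldh1l1 (1.53). The mean of the astrocyte list spanned 11.15 to 11.22 in GFD-Smo and 9.77 to 10.05 in NG-Smo tumours. Of 15 endothelial genes 13 were above 0 and 1 was called, the VEGF receptor gene Kdr (0.84), and the list mean spanned 8.30 to 8.60 in GFD-Smo and 8.04 to 8.60 in NG-Smo tumours. Kdr is 1 of the list's defining genes, and the others, Pecam1 and Cdh5, had values of 0.15 and 0.21. Their adjusted p were 0.727 and 0.812 in limma. Cldn5, a further gene of the list, had a value of 0.43 (adjusted p = 0.465 with limma). Of 14 microglia and macrophage genes 4 fell, and of 9 measured choroid plexus genes 1 rose. Of 20 skeletal muscle genes 18 were above 0 and 0 were called, with a median of 0.35. Over the 29 alternatives 0 to 11 of the skeletal muscle genes were called higher. The part of these lists in the Pdgfrb result was not tested.

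Rgs5 encodes a regulator of G protein signalling that is abundant in brain pericytes. Its levels were 10.17, 10.17, 10.08 and 9.72 in GFD-Smo and 9.28, 9.77, 9.98 and 9.25 in NG-Smo tumours. In Ptch tumours they were 8.93, 8.42, 9.20 and 8.44 in GFI, 9.39 and 9.16 in GFD, and 8.74, 8.85, 9.16 and 8.82 in NG. The 8 Smo arrays all exceeded the 4 NG-Ptch arrays, while GFD-Smo and NG-Smo overlapped. Means were 10.04 ± 0.22 in GFD-Smo, 9.57 ± 0.36 in NG-Smo, 8.75 ± 0.38 in GFI-Ptch, 9.28 ± 0.16 in GFD-Ptch and 8.89 ± 0.18 in the NG-Ptch group (SD). GFD-Ptch did not differ from NG-Smo, nor GFI-Ptch from NG-Ptch, by more than the larger SD.

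Rgs5 was 0.76 higher in Smo than in Ptch tumours of the GFD subtype, a 1.69-fold difference (SE 0.23, limma's adjusted p = 0.0396). In the NG subtype the difference was 0.68 (SE 0.19), which limma did not call (adjusted p = 0.127), although the groups did not overlap, as was so in this direction for 2.97% of all genes. It was called in 2 of 29 alternative settings, and the adjusted p ranged from 0.0303 to 0.382. The difference between GFD and NG was 0.46 in Smo and 0.38 in Ptch tumours, with adjusted p of 0.221 and 0.394 in limma. These values differed between the models by 0.08, with an interval of -0.56 to 0.73.

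The calls between Smo and Ptch tumours of the GFD subtype rest on few arrays. Pdgfrb lost its call without any 1 of NG-Ptch replicates 1, 2 or 5, GFD-Ptch replicates 1 or 2, or GFD-Smo replicates 1, 2 or 4, with adjusted p of 0.0506 to 0.232. Rgs5 lost its call without NG-Ptch replicate 2, either GFD-Ptch array, or GFD-Smo replicates 1, 2 or 3, with adjusted p of 0.0501 to 0.295. Mgp, described below, lost its call without either GFD-Ptch array or GFD-Smo replicates 2, 3 or 4, with adjusted p of 0.0656 to 0.181. With the 3 arrays of mismatched gender label left out, 0 of the 8 genes were called. Both GFD-Ptch arrays had high Y-linked levels and GFD-Smo tumours had both high and low ones, and with that level as a covariate Mgp had a change of -0.62 (adjusted p = 0.127 with limma). With 1 GFD-Ptch array left, that array is assumed to vary like those of the other groups.

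Pdgfrb and Rgs5 moved together, and both varied with endothelial genes, among others, from array to array. Over the 18 arrays Pearson's r between them was 0.79. It was 0.60 for the deviations from group means, and 0.49 without the 2 farthest arrays. The median r of Rgs5 with the 15 endothelial genes was 0.75, and with all genes -0.07; for Pdgfrb the values were 0.67 and -0.04. Taken on deviations from group means, the median r with the endothelial genes was 0.61 for Rgs5 and 0.56 for Pdgfrb. With the 18 pericyte and mural genes the median r was lower, at 0.31 for Rgs5 and 0.37 for Pdgfrb. Endothelium was not the only such list. With the 12 astrocyte genes the median r was 0.56 for Rgs5 and 0.54 for Pdgfrb, and 0.11 and 0.24 on deviations. With the 25 fibroblast and meningeal genes it was 0.33 for Rgs5 and 0.43 for Pdgfrb, and -0.03 and 0.08 on deviations. With the 9 oligodendrocyte progenitor genes it was 0.45 for Rgs5 and 0.43 for Pdgfrb on levels. On deviations Pdgfrb had a median r of 0.57 with 9 oligodendrocyte progenitor genes and 0.47 with 9 choroid plexus genes, where Rgs5 had 0.29 and -0.02. All these values are descriptions over the same 18 arrays, which share their processing.

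**Figure D3:**
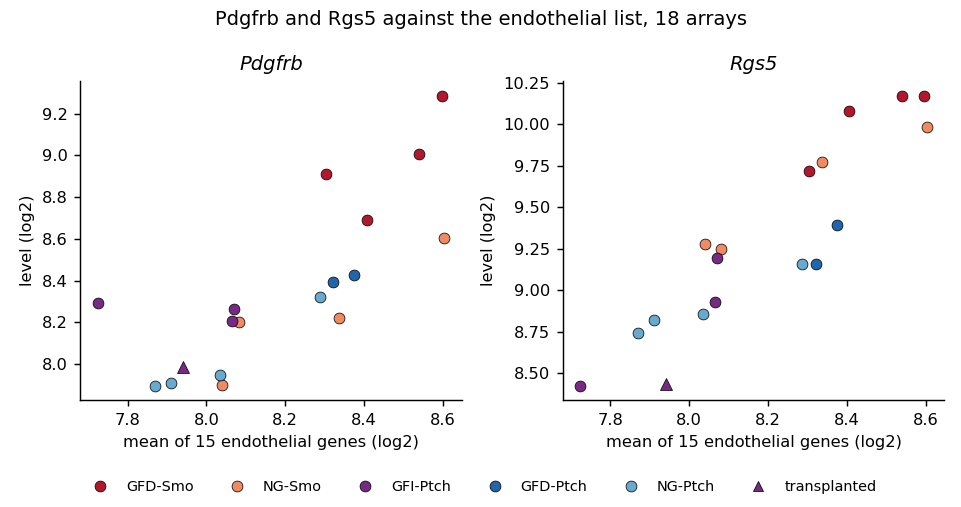
Levels of Pdgfrb and Rgs5 (log2, y axes) against the mean of 15 endothelial genes (log2, x axes) on the 18 arrays, coloured by group, with the transplanted tumour as a triangle. Rgs5 ranges from 8.42 to 10.17 and rises with the endothelial mean, and the 4 GFD-Smo arrays are the highest of all for Pdgfrb.

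Acta2 encodes smooth muscle actin, a thin-filament protein of vascular smooth muscle and of activated fibroblasts. Its levels were 8.90, 8.94, 9.22 and 8.90 in GFD-Smo and 8.77, 8.56, 8.83 and 7.89 in NG-Smo tumours. In Ptch tumours they were 8.34, 8.55, 8.54 and 11.18 in GFI, 9.61 and 9.75 in GFD, and 8.09, 8.76, 8.86 and 8.15 in NG. The value of 11.18 belonged to the transplanted tumour, and next came both GFD-Ptch arrays, above the remaining 15. Among all genes the within-group SD of Acta2, 0.71, lay at the 99.4th percentile.

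The difference between GFD-Ptch and NG-Ptch tumours was 1.21 for Acta2, a 2.32-fold difference (SE 0.57, adjusted p = 0.294 with limma). Although the groups compared do not contain the transplanted tumour, its array enters the shared spread. Without it the SE was 0.25 and the adjusted p 0.0391, and with NG-Smo replicate 4 left out as well the adjusted p was 0.0127. The difference was called in 3 of 29 settings, the third being array weights, and elsewhere the adjusted p reached 0.966. For GFI minus NG in Ptch tumours the value was 0.69, and without the transplanted tumour it was 0.01 (SE 0.22). For GFI minus GFD in Ptch tumours it was -0.53, and without the transplanted tumour -1.20 (SE 0.26, adjusted p = 0.0838 with limma). In Smo tumours the 4 GFD arrays lay above the 4 NG arrays, with a difference of 0.48 (SE 0.46, adjusted p = 0.779 with limma), which was 0.27 without NG-Smo replicate 4. The mean of 20 skeletal muscle genes, which include sarcomeric actins, spanned 7.85 to 8.11 in these GFD and 7.30 to 7.83 in these NG tumours, and its part in the Acta2 values was not tested.

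Tagln encodes transgelin, an actin-binding protein of smooth muscle. Its levels were 7.57, 7.35, 7.39 and 7.41 in GFD-Smo and 7.53, 7.61, 8.19 and 7.61 in NG-Smo tumours. In Ptch tumours they were 7.57, 7.56, 7.47 and 8.39 in GFI, 7.67 and 7.74 in GFD, and 7.47, 7.59, 7.73 and 7.42 in NG. Its group means spanned only 0.32, and neighbouring groups in the order of means all overlapped. The transplanted tumour was the highest array and NG-Smo replicate 3 the next. No comparison was called for Tagln, and its values ranged from -0.46 for the difference between the models to 0.20 for GFI minus NG in Ptch tumours.

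In the transplanted tumour 3 of the 8 genes, Acta2, Tagln and Fbln1, were above all 17 other arrays. The same was true of 2622 of the 19938 genes and of 16 of 20 skeletal muscle genes. Relative to the mean of the other 3 GFI-Ptch arrays it was higher by 2.71 for Acta2, 0.85 for Tagln, 1.50 for Fbln1 and 0.33 for Lum. It was lower for Pdgfrb, Rgs5, Dcn and Mgp, by values of -0.27, -0.41, -0.56 and -0.61. The smooth muscle genes Myh11 and Cnn1 were at 7.02 and 7.39 in the transplanted tumour, against 7.36 to 7.43 and 7.22 to 7.44 in the other GFI-Ptch tumours. Myl9, a myosin light chain gene of the same list, was at 10.98, against 8.86 to 8.99. Of the 16 smooth muscle genes 4 were above all other arrays, and the median difference of the list was -0.01. The mean of the 20 skeletal muscle genes was 9.77 in the transplanted tumour, and at most 8.11 on any other array. Its defining genes Myh3, Myog and Actc1 were 4.78, 2.80 and 4.51 higher than in the other GFI-Ptch tumours. The median r of Acta2 with these 20 genes was 0.74 over the 18 arrays and 0.24 without the transplanted tumour. For Tagln the values were 0.55 and -0.36, and for Fbln1 0.53 and 0.36. Pdgfrb had 0.02 and Rgs5 -0.17 over the 18 arrays, but 0.51 and 0.50 without the transplanted tumour. Without that tumour the median r with 15 endothelial genes was 0.53 for Acta2, 0.26 for Tagln and 0.63 for Fbln1. The part of muscle RNA in the Acta2, Tagln and Fbln1 values was not tested.

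**Figure D4:**
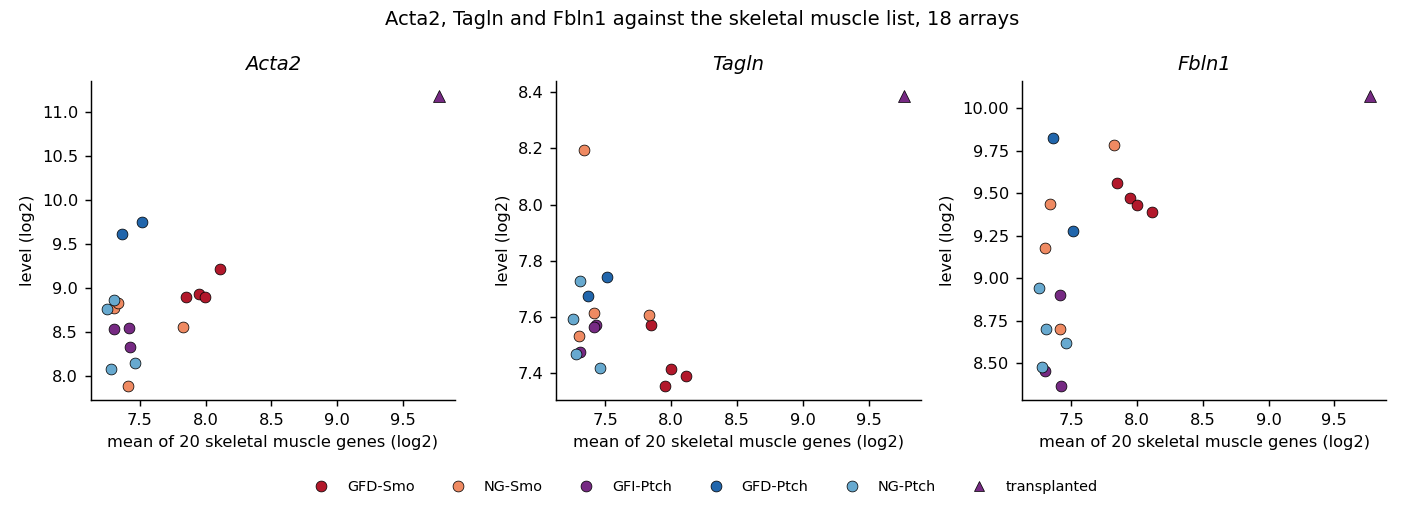
Levels of Acta2, Tagln and Fbln1 (log2, y axes) against the mean of 20 skeletal muscle genes (log2, x axes) on the 18 arrays, coloured by group, with the transplanted tumour as a triangle. The transplanted tumour is highest on both axes in each panel, while the GFD-Ptch arrays reach Acta2 levels of 9.61 and 9.75 with a muscle mean of at most 7.51.

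The promoters of Acta2 and of the sarcomeric actin genes Acta1 and Actc1, which were 2.74 and 4.51 higher in the transplanted tumour, are shown because actin genes are known targets of SRF at CArG boxes. The windows are RefSeq's for GRCm38.p6, from 250 bases before to 50 after the annotated start, 5′ to 3′ on the gene's strand. Acta2 lies at chr19:34255324-34255623, Acta1 at chr8:123894726-123895025 and Actc1 at chr2:114052826-114053125, all on the minus strand. Capitals mark CArG boxes, searched on both strands with at most 1 mismatch in their 6 central letters, and GGAATG or its reverse complement CATTCC, the core of the MCAT element.
Acta2: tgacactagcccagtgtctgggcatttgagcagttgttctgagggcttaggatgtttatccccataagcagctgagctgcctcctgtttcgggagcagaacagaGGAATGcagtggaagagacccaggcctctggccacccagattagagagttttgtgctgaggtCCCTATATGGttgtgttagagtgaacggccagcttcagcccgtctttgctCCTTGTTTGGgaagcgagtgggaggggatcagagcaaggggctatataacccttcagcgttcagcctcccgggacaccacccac
Acta1: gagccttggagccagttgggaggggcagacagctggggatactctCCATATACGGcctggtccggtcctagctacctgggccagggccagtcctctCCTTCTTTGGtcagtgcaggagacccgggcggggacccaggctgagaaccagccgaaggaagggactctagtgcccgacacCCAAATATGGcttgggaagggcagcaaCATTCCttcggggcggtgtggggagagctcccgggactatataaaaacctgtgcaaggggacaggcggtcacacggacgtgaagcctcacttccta
Actc1: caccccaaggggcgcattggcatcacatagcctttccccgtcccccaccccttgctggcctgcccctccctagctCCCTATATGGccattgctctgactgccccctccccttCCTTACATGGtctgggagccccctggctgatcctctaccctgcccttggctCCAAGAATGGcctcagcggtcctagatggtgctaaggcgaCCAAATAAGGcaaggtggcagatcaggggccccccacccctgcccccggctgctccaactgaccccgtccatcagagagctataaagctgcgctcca

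The Acta2 window held 2 CArG boxes with 1 mismatch, at -84 to -75 and at -34 to -25 from the start, and GGAATG at -146 to -141. The Acta1 window held 3 CArG boxes, of which 1, at -73 to -64, had no mismatch, and CATTCC at -46 to -41. The Actc1 window held 4, of which 1, at -47 to -38, had no mismatch. No marked motif overlapped another. Of all 32851 RefSeq windows 1.63% held a CArG box with no mismatch, 9.98% one with at most 1, and 14.7% GGAATG. A window was also matched for Rgs5 and Fbln1, and neither held these letters. The same was true of the windows of Myh3, Des and Tpm2, which were 4.78, 3.88 and 2.52 higher in the transplanted tumour. The window of Myl9, which was 2.03 higher there, held 2 CArG boxes, of which 1, at -161 to -152, had no mismatch. Of 16 skeletal muscle genes with a window 5 held a CArG box with at most 1 mismatch, as did 3050 of all 27025 gene symbols. This count was not particular to muscle. It was 5 of 12 for endothelial genes and 5 of 12 for PDGF and TGF-beta signalling genes. For smooth muscle genes it was 2 of 13, and for genes of small leucine-rich proteoglycans and elastic fibres 0 of 13. The windows printed are those of actin genes and were chosen after these values were seen. These matches are descriptions, and binding was not measured here.

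Dcn and Lum encode decorin and lumican, small leucine-rich proteoglycans that bind collagen fibrils. They are neighbours on chromosome 10 with 0 genes between them. Dcn was at 11.02, 10.44, 10.32 and 10.14 in GFD-Smo and 11.19, 10.43, 10.56 and 9.69 in NG-Smo tumours. In Ptch tumours it was at 11.20, 11.23, 10.69 and 10.48 in GFI, 10.76 and 9.39 in GFD, and 10.67, 10.79, 10.48 and 10.07 in NG. All groups overlapped, and the 2 GFD-Ptch arrays spanned more than any other group except NG-Smo. Lum was at 7.75, 7.51, 7.57 and 7.34 in GFD-Smo and 8.09, 7.41, 7.50 and 6.40 in NG-Smo tumours. In Ptch tumours it was at 7.29, 7.75, 7.69 and 7.91 in GFI, 7.80 and 6.72 in GFD, and 7.18, 7.79, 7.31 and 7.25 in NG. The lowest arrays for both genes were GFD-Ptch replicate 2 and NG-Smo replicate 4.

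No comparison was called for Dcn or Lum. The largest value was 0.82 for Dcn in GFI minus GFD in Ptch tumours, with an interval of -0.02 to 1.67 (adjusted p = 0.518 with limma). It was 0.14 without GFD-Ptch replicate 2 and 1.51 without GFD-Ptch replicate 1. In Smo tumours the difference between GFD and NG was 0.01 for Dcn (interval -0.68 to 0.70) and 0.19 for Lum (interval -0.43 to 0.81), so differences within those intervals are not excluded. The genes varied together within groups, with r = 0.74 for the deviations from group means and 0.57 without the 2 farthest arrays.

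Mgp encodes matrix Gla protein, an inhibitor of calcification made by vascular smooth muscle and fibroblasts. Its levels were 7.63, 7.35, 7.39 and 7.22 in GFD-Smo and 7.88, 7.49, 8.05 and 7.69 in NG-Smo tumours. In Ptch tumours they were 7.38, 8.29, 8.65 and 7.49 in GFI, 8.33 and 8.29 in GFD, and 7.71, 7.56, 7.92 and 7.50 in NG. The GFD subtype had the lowest group mean in Smo tumours, 7.40 ± 0.17 (SD, n = 4), and the highest in Ptch tumours, 8.31 ± 0.03 (SD, n = 2). Mgp was lower in GFD-Smo than in GFD-Ptch tumours by a log2 change of -0.91, a 1.88-fold difference (SE 0.27, limma's adjusted p = 0.0350). The difference between GFD and NG was -0.38 in Smo and 0.64 in Ptch tumours, with adjusted p of 0.469 and 0.269 in limma. The change between models was -1.02 (interval -1.77 to -0.27, adjusted p = 0.127 with limma), and it was called in 1 of 29 settings, with only these 4 groups in the fit (adjusted p = 0.0089 with limma). Over the settings the change ranged from -1.11 to -0.53 and the adjusted p reached 0.411.

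Fbln1 encodes fibulin 1, a glycoprotein of basement membranes and elastic fibres. Its levels were 9.56, 9.47, 9.39 and 9.43 in GFD-Smo and 9.18, 9.78, 9.44 and 8.70 in NG-Smo tumours. In Ptch tumours they were 8.37, 8.90, 8.46 and 10.07 in GFI, 9.82 and 9.28 in GFD, and 8.48, 8.94, 8.70 and 8.62 in NG. Both GFD groups lay above all NG-Ptch arrays, and the GFI-Ptch value of 10.07 was the transplanted tumour. The difference between GFD and NG was 0.87 in Ptch (SE 0.37, adjusted p = 0.268 with limma) and 0.19 in Smo tumours (SE 0.30, adjusted p = 0.906 with limma). For GFI minus NG in Ptch tumours it was 0.26, and without the transplanted tumour -0.11. Between the NG groups Fbln1 was 0.59 higher in Smo tumours (interval -0.05 to 1.23), which limma did not call (adjusted p = 0.531).

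In Ptch tumours the GFD subtype lay above NG without overlap for 5 of the 8 genes, Pdgfrb, Rgs5, Acta2, Mgp and Fbln1. The same held for 20.6% of all genes, and 34.6% did not overlap in either direction, as is easily reached with 2 arrays in a group. The median change of the 8 genes was 0.39, and of all genes 0.04. Sex and subtype cannot be told apart between these groups, since the mean of Y-linked genes was 9.837 and 9.844 in GFD-Ptch and 5.396 to 5.466 in NG-Ptch tumours. With the Y-linked level as a covariate, which the other groups help to fit, the change was 0.22 for Pdgfrb, 0.10 for Rgs5, 1.28 for Acta2, 0.24 for Mgp and 1.05 for Fbln1, and none was called. In Smo tumours GFD lay above NG without overlap for 2 of 8 genes, Pdgfrb and Acta2, against 5.99% of all genes, and the medians were 0.19 for the 8 genes and -0.01 for all genes. Between the GFD groups 2 of 8 genes were higher without overlap and 3 lower in Smo tumours, against 23.4% and 33.7% of all genes. For GFI minus NG in Ptch tumours all 8 genes overlapped, where 4.86% of all genes did not.

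Within groups the 8 genes formed small clusters of covariation and not 1 block. Of the 28 pairs 6 had an r above 0.5 on deviations from group means, and the median over all pairs was 0.15. Acta2 correlated with Fbln1 at 0.85 and with Tagln at 0.82, and without the 2 farthest arrays these values were 0.58 and 0.61. For levels over the arrays, r without the transplanted tumour was 0.67 for Acta2 with Fbln1 and 0.21 for Acta2 with Tagln, against 0.73 and 0.64 with it. Fbln1 also correlated with Tagln at 0.69 and with Lum at 0.56, and without the 2 farthest arrays at 0.40 and 0.61. For levels over the arrays, r of Fbln1 with Tagln was 0.18 without the transplanted tumour and 0.43 with it. The remaining pairs above 0.5 were Dcn with Lum and Pdgfrb with Rgs5. For levels over the arrays, the median r with 16 smooth muscle genes was 0.05 for Acta2 and 0.08 for Tagln. With 25 fibroblast and meningeal genes it was 0.01 for Dcn, 0.06 for Lum, -0.18 for Mgp and 0.17 for Fbln1. With all genes the median r of these 6 genes spanned -0.07 to 0.09.

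**Figure D5:**
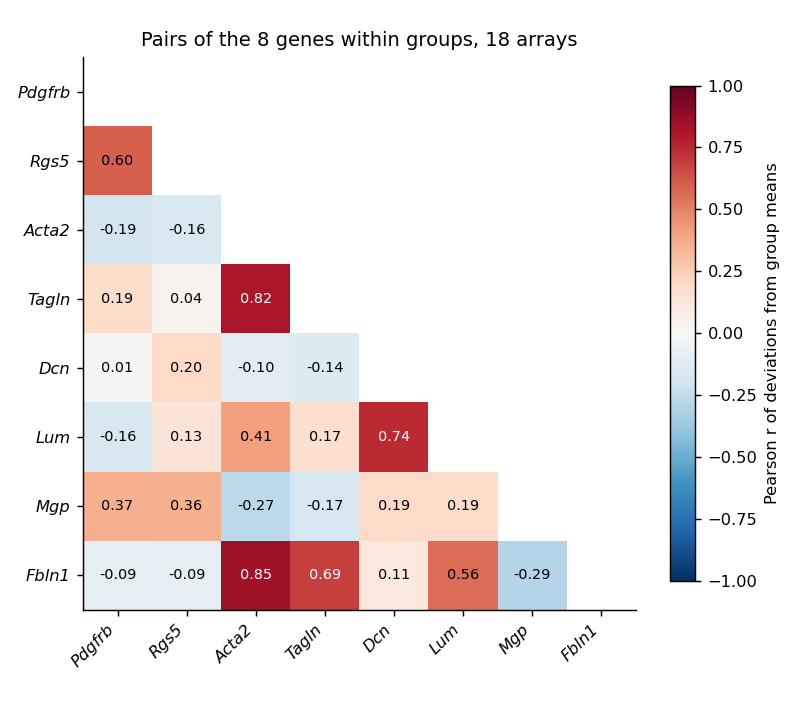
Pearson's r between the 8 genes for deviations from group means over 18 arrays, as coloured squares from -1 to 1. The highest values are between Acta2 and Fbln1 (0.85), Acta2 and Tagln (0.82), and Dcn and Lum (0.74), while Mgp stays at or under 0.37 with every other gene.

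Further genes of the same cell types were followed in lists. Of 18 pericyte and mural genes, 3 rose and 1 fell in GFD-Smo relative to NG-Smo tumours (22.2% called, against 5.31% of all genes). The adhesive glycoprotein gene Vtn rose by 1.05, the P-type ATPase gene Atp13a5 by 1.04 and the receptor gene Notch3 by 0.53, while Art3 changed by -0.82. The defining genes Cspg4, Kcnj8 and Abcc9 had values of -0.17, 0.08 and -0.04 and were not called. The list's median change was 0.08, against -0.01 for all genes. Without the 3 arrays of mismatched gender label 1 of these genes rose, and without the transplanted tumour and NG-Smo replicate 4 together 5 rose and 1 fell.

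Of 25 fibroblast and meningeal genes, 7 rose and 1 fell in GFD-Smo relative to NG-Smo tumours, with a median change of 0.34. The share called was 32.0%, against 5.31% of all genes. The collagen genes Col1a1, Col1a2 and Col3a1 rose by 0.46, 0.57 and 0.38. The connexin gene Gjb2 rose by 0.78, the matricellular gene Postn by 0.70 and the laminin gene Lamb1 by 0.69, while Serping1, the C1 inhibitor gene, changed by -0.85. Col1a2 was at 9.14, 8.88, 8.65 and 8.84 in GFD-Smo and at 8.20, 8.19, 8.35 and 8.49 in NG-Smo tumours, without overlap. Without the 3 arrays of mismatched gender label 3 genes of the list rose, and without the transplanted tumour and NG-Smo replicate 4 together 10 rose and 1 fell. Of 16 measured genes of small leucine-rich proteoglycans and elastic fibres, 2 rose, fibromodulin (Fmod, 0.88) and Ecm2 (0.72).

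Of 18 measured genes of PDGF and TGF-beta signalling, 1 rose in GFD-Smo relative to NG-Smo tumours. That share, 5.56%, was near the 5.31% of all genes called. It was Pdgfd, whose product is a ligand of the Pdgfrb receptor, at 8.54, 8.32, 8.10 and 7.99 in GFD-Smo and 7.51, 7.07, 7.60 and 7.11 in NG-Smo tumours. Its difference was 0.91 (SE 0.20, limma's adjusted p = 0.0125), and no array overlapped. Pdgfb, the ligand made by endothelium, had a value of -0.11 (adjusted p = 0.753 with limma). None of the 16 smooth muscle genes and none of the 14 other RGS genes measured was called in this comparison. Over the 29 alternatives 0 to 2 smooth muscle genes rose, 2 of them without the transplanted tumour and NG-Smo replicate 4 together and 1 without the 3 arrays of mismatched gender label, and at most 1 RGS gene rose or fell. Myh11, Cnn1 and Myl9 of the first of these lists had values of -0.12, -0.53 and 0.36.

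Between the GFD groups, of the pericyte and mural genes 3 rose in GFD-Smo relative to GFD-Ptch tumours (16.7% called, against 15.6% of all genes), namely Atp13a5 (1.50), Vtn (1.25) and Notch3 (0.52). Of the fibroblast and meningeal genes 5 rose and 2 fell (28.0% called), led by Postn (1.45) and the transporter genes Slc6a13 (1.28) and Slc6a20a (1.23), with the forkhead gene Foxd1 at -2.29. Of the smooth muscle genes 2 fell, Cald1 (-0.39) and Myocd (-0.27), which encodes the SRF coactivator myocardin. Without the 3 arrays of mismatched gender label 1 gene of this list rose and 0 fell, and over the 29 alternatives 0 to 3 rose and 0 to 6 fell. Without those 3 arrays 2 pericyte and mural genes rose, 4 fibroblast and meningeal genes rose and 1 fell, and 1 gene of PDGF and TGF-beta signalling rose and 0 fell. Of the PDGF and TGF-beta signalling genes 2 rose, Pdgfd by 1.39 and the receptor gene Tgfbr1 by 1.06, and 2 fell, Acvrl1, which encodes a TGF-beta family receptor of endothelium, with a change of -0.30, and Myocd again. Rgs2, of the RGS list, rose by 0.91. The change of Pdgfd from NG to GFD differed between the models by 1.36 (SE 0.31, limma's adjusted p = 0.0267), and that of Acvrl1 by -0.47 (SE 0.12, limma's adjusted p = 0.0351). Atp13a5 (1.16), Ecm2 (1.04), Rgs2 (1.02) and Gjb2 (0.73) were also called for this difference between models. So were 10 of 12 astrocyte genes, against 3.81% of all genes. This difference contains the Ptch comparison of GFD with NG, in which sex and subtype cannot be told apart. Over the 29 alternatives 0 to 3 genes of PDGF and TGF-beta signalling were called higher for it and 0 to 2 lower. Those called higher were 0 to 1 for the pericyte list, 0 to 5 for fibroblast, 0 to 2 for proteoglycan and 0 to 2 for RGS genes. For astrocyte genes they were 1 to 11. Between the NG groups 1 fibroblast and meningeal gene rose, Postn (0.79), and 1 fell, Foxd1 (-1.89). The share called was 8%, against 1.04% of all genes. In the 3 comparisons of Ptch subtypes 0 genes of these lists were called by limma. In the GFD comparison 11 of 12 astrocyte genes rose, with a median of 2.39, as did 5 of 14 microglia and macrophage genes and 4 of 9 oligodendrocyte progenitor genes. The part of these cell types in the other lists and in the 3 called genes was not tested.

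The genes most alike in pattern were found by Pearson's r of the log2 level over the 18 arrays, 3 for each of the 8 genes. Rgs5 was most like the adhesion G protein-coupled receptor genes Adgrl4 (0.94, and 0.88 on deviations from group means) and Adgrf5 (0.94 and 0.91), and then Pglyrp1 (0.91). Pdgfrb was most like the organic anion transporter gene Slc22a8 (0.92, and 0.88 on deviations), Gdpd2 (0.92) and the Frizzled receptor gene Fzd6 (0.91). Fbln1 was most like Emcn, which encodes the endothelial sialomucin endomucin (0.90, and 0.88 on deviations), Calr (0.88) and Tpgs2 (0.87). For Acta2 the leading genes were Fbln2, which encodes fibulin 2 (0.90), Egln3 (0.89) and Ccl25 (0.89), and without the transplanted tumour their values were 0.73, 0.76 and 0.81. Tagln was most like Traf7 (0.88), Cers3 (0.88) and Bag6 (0.87), and Mgp like Ntng1 (0.88), Kap (0.78) and Amn1 (0.77). Dcn was most like Efemp1, which encodes fibulin 3 (0.78), Lin52 (0.75) and Dnajc9 (0.75), and Lum like Atp6v1c1 (0.81), Xrcc6 (0.79) and Mtrf1l (0.78). These are the highest of many correlations over 18 arrays and are given as descriptions.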

How the data were processed

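The values are those the authors deposited, on a log2 scale, for 18 arrays; the base was inferred from the range of 4.219 to 14.32. Partek 6.6 is named per the submitters' processing notes, while background correction, probe summary and scaling are not given in the sources used here. Probe sets with 1 gene symbol in GEO's platform annotation were kept, and for 999 genes with several the probe set of highest mean stood for the gene. All 8 genes were matched. A mean per group was fitted over all 18 arrays with limma 3.58.1 in R 4.3.3, with 1 shared spread for each gene, no covariate, and 13 degrees of freedom from the arrays plus 2.448 from the prior. Tests were two-sided and adjusted over 19938 genes. Precision is limited by the number of arrays. Each array's value was named, with up to 4 called genes of largest change per list and comparison, a list's first 3 genes as defining ones, and 3 alike genes per gene. The genes and lists were chosen with earlier results of these data known. The fit was tested on simulated data. Replicate numbers did not pair samples (29 same-numbered pairs, r of -0.310 to 0.187, 3 over 0.1). Plots used Python 3.11.15 with matplotlib 3.10.9.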

Additional observations from a re-analysis of the deposited data

Results flagged for a closer look

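In groups of 4 arrays, a gene was singled out where the highest or lowest array stood farther from its nearest neighbour than Dixon's test allows for that group's range. This happened in 5 of 32 gene and group combinations, and chance alone gives about 1 in 20 for a single combination. The genes covary within groups, so the combinations are not independent and the count cannot measure an excess over that rate. Acta2 in GFI-Ptch replicate 4, the transplanted tumour, was at 11.18, while the other 3 arrays were at 8.34 to 8.55. Tagln in the same array was at 8.39, with the others at 7.47 to 7.57. Tagln in NG-Smo replicate 3 was at 8.19, with the others at 7.53 to 7.61. Acta2 in GFD-Smo replicate 3, 1 of the arrays whose Y-linked level went against the gender label, was at 9.22, with the others at 8.90 to 8.94. Pdgfrb in NG-Ptch replicate 4 was at 8.32, with the others at 7.90 to 7.95. That array also had the highest Rgs5 (9.16) and the highest endothelial mean (8.29) of the NG-Ptch group. Its mean of the choroid plexus list was 8.86, against 7.11 to 7.28 on the other NG-Ptch arrays. The highest Pdgfrb and the highest choroid plexus mean also shared an array in GFD-Smo (replicate 2, 9.29 and 9.38) and GFI-Ptch (replicate 2, 8.29 and 8.90). In NG-Smo and GFD-Ptch they did not. The part of these lists in the Pdgfrb values was not tested.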

How the results depend on the processing

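The 56 values of the 8 genes were recomputed under 29 alternatives, of which 3 were chosen after seeing the data: 1523 kept direction and side of the threshold, 30 lost a call, 13 gained one and 58 changed sign, in 20 values of which none was called. Pdgfrb for GFD minus NG in Smo tumours kept its call in all 29. Of the 8 genes, the number called for Smo minus Ptch in GFD tumours was 1 with quantile normalization, 0 with gender as a covariate, 5 with only the groups compared, 1 with the replicate block, 0 without the 3 mismatched arrays, and 0 to 3 with 1 array left out. For GFD minus NG in Ptch tumours it was 1 with array weights, 2 without the 2 arrays that stood apart, and 0 to 1 with 1 left out. For Smo minus Ptch in NG tumours it was 1 with array weights and 2 without those arrays, for GFI minus GFD 1 without them, and for the difference between models 1 with only the groups compared and 1 without them. The cause was not tested. Over all genes the calls ranged over 0 to 689 for GFD minus NG in Ptch tumours, 0 to 180 for GFI minus NG, 0 to 64 for GFI minus GFD, 435 to 1740 for GFD minus NG in Smo tumours, 34 to 1169 for Smo minus Ptch in NG, 997 to 6809 (median centring) in GFD, and 159 to 1484 for the difference.

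Sign changes were as follows, all in values that were not called. With quantile normalization the values were Dcn -0.00082 for GFD minus NG in Smo. With median centring the values were Dcn -0.031 for GFD minus NG in Smo. With gender as a covariate the values were Fbln1 0.028 for Smo minus Ptch in GFD, Pdgfrb -0.015 for the difference between models and Rgs5 -0.016 for the difference between models. With array weights the values were Tagln -0.12 for GFI minus GFD in Ptch, Dcn -0.11 for GFD minus NG in Smo, Dcn 0.087 for Smo minus Ptch in NG and Lum 0.20 for Smo minus Ptch in NG. With the replicate block the values were Tagln -0.060 for GFI minus GFD in Ptch, Acta2 -0.049 for Smo minus Ptch in NG and Mgp -0.057 for Smo minus Ptch in NG. With the Y-linked level as a covariate the values were Mgp -0.095 for Smo minus Ptch in NG. Without the transplanted tumour and NG-Smo replicate 4 the values were Tagln -0.016 for GFI minus NG in Ptch, Fbln1 -0.11 for GFI minus NG in Ptch, Tagln -0.17 for GFI minus GFD in Ptch, Dcn -0.25 for GFD minus NG in Smo, Lum -0.13 for GFD minus NG in Smo, Fbln1 -0.0039 for GFD minus NG in Smo, Dcn 0.23 for Smo minus Ptch in NG, Lum 0.29 for Smo minus Ptch in NG, Rgs5 -0.024 for the difference between models and Lum -0.0026 for the difference between models. Without the 3 mismatched arrays the values were Tagln -0.016 for GFI minus NG in Ptch, Fbln1 -0.11 for GFI minus NG in Ptch, Tagln -0.17 for GFI minus GFD in Ptch and Rgs5 -0.0093 for the difference between models. With 1 array left out at a time, the lowest and highest values were, for GFD minus NG in Ptch -1.11 to 0.26 (Dcn), -0.66 to 0.42 (Lum); for GFD minus NG in Smo -0.25 to 0.25 (Dcn), -0.0039 to 0.36 (Fbln1), -0.13 to 0.44 (Lum). They were, for GFI minus GFD in Ptch -0.14 to 0.94 (Lum), -0.17 to 0.13 (Tagln); for GFI minus NG in Ptch -0.11 to 0.46 (Fbln1), -0.016 to 0.29 (Tagln). The rest were, for Smo minus Ptch in GFD -0.28 to 1.09 (Dcn), -0.36 to 0.18 (Fbln1), -0.26 to 0.82 (Lum); for Smo minus Ptch in NG -0.078 to 0.26 (Acta2), -0.27 to 0.23 (Dcn), -0.28 to 0.29 (Lum); for the difference between models -0.25 to 1.12 (Dcn), -0.23 to 0.85 (Lum), -0.033 to 0.22 (Rgs5).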
